A study of Mus musculus with 12 samples.

Results

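The cluster of miR-132 and miR-212 gives 4 mature microRNAs (miRNAs), miR-132-3p, miR-132-5p, miR-212-3p and miR-212-5p, one from each arm of 2 hairpins. These 4 were taken by name from a table of 1900 mature mouse miRNAs. All 4 were among the 877 with a read in at least 1 library, and all 4 passed the filter on low values, a read in at least 5 of 12 libraries, that left 482 miRNAs in the fit. miR-132-5p passed it with 5 libraries, 4 of them aged. They were chosen by their measured levels in young and aged muscle, that of miR-132-3p above all, so their differences with age are given as a description, with no test.

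Small RNA was sequenced from gastrocnemius muscle, the large calf muscle, of male C57BL/6 mice. The young group was 6 mice of 6 months and the aged group was 6 mice of 24 months, with 1 library per mouse. The strain, sex and tissue were shared by both groups, and the labels name no treatment. The samples were whole muscle, so in what follows fewer cells of a type and less RNA per cell cannot be told apart.

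This cluster is read from a noncoding host gene whose promoter holds binding sites for CREB, a transcription factor switched on by calcium and cAMP signals. It is best known in neurons, where activity and growth factors raise it and where it acts on dendrites and synapses. It is also induced by endotoxin in myeloid cells and by growth factors in blood vessel cells, and it has been studied in heart muscle.

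Mature sequences are shown because the 3p arms of both hairpins carry the same seed, bases 2 to 8, by which a miRNA pairs with its targets. They are written 5′ to 3′ from RefSeq (GRCm38.p6), with the seed in capitals.
mmu-miR-132-3p: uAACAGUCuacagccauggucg
mmu-miR-212-3p: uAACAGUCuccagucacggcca
mmu-miR-132-5p: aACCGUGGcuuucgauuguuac
mmu-miR-212-5p: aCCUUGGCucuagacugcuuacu
Among 1679 mature miRNAs of the table with a RefSeq sequence, miR-132-3p and miR-212-3p were the only ones with the seed AACAGUC. Their first 9 bases were the same, and 17 of 22 positions were identical. The 5p arms matched at 9 of 22 positions, and the seed of each was found in no other of the 1679. Both counts of positions were made from the first base with no shift. The printed 5p arms look more alike when shifted, which was not counted. A read of either 3p arm can therefore be told from the other by its later bases.

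Both hairpins lie on the plus strand of chromosome 11 (mm10, the GRCm38 assembly), Mir212 at chr11:75173388-75173478 and Mir132 at chr11:75173682-75173747, with 203 bases between them. Both fall in intron 1 of the noncoding gene 1700016P03Rik, which has 3 exons and runs from 75172560 to 75177633 on the same strand. The hairpins are printed in the order of the genome, with the mature arms in capitals, to show that the 5p arm precedes the 3p arm in each.
Mir212: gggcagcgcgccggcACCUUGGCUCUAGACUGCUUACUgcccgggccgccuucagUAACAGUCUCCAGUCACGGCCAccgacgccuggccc
Mir132: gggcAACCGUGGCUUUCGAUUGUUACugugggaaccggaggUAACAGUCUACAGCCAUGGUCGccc
The nearest protein-coding genes were Hic1, 3869 bases before the cluster, and Ovca2, 2195 bases after it, both on the minus strand. Hic1 encodes a transcriptional repressor that is often silenced in tumours.

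The table gives log2 of FPKM, which divides the reads of a miRNA by its length and by the depth of the library. A value of 0 stands for no read. Low values fell in steps of whole reads, from which the reads behind each value were recovered. The estimated mapped reads ran from 212196 to 6526695 in the young and from 120437 to 7761592 in the aged libraries, with medians of 451268 and 1347330. Young replicate 6 and aged replicate 3 were the deepest by far, and aged replicate 5 was the shallowest. As a result, 1 read of a 22-base miRNA was worth 5.86 FPKM in aged replicate 3 and 377 FPKM in aged replicate 5. All 4 arms together had 81 reads in young and 243 in aged muscle, so most single values rest on few reads.

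The dominant product of the cluster was miR-132-3p, the arm that is usually loaded as the guide strand and that represses targets such as the GTPase-activating protein p250GAP in neurons. In young replicates 1 to 6 its reads were 6, 0, 1, 1, 0 and 35. In aged replicates 1 to 6 they were 35, 16, 102, 16, 2 and 13. Every aged library had a read, while young replicates 2 and 5 had none.

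In FPKM, miR-132-3p had its lowest value at 0, its median at 183 and its highest at 449 in young muscle. The aged libraries ran from 446 through a median of 594 to 955. In 5 of 6 aged libraries the level lay above the highest young value, that of young replicate 1, and aged replicate 6 lay just under it. Such a pattern, with at least 5 aged libraries above all young ones, was seen in 2.49% of the 482 miRNAs. The mean was 176 ± 169 FPKM (SD, n = 6) in young and 646 ± 182 FPKM (SD, n = 6) in aged muscle, a 3.66-fold difference of the means. Where no read was found, the limit of 3 reads was 293 FPKM in young replicate 2 and 312 FPKM in young replicate 5, under all the aged values. In young replicates 3 and 4, with 1 read each, the level of 3 reads was 457 and 643 FPKM, above 1 and 4 of the aged values. Aged replicate 5, at 755 FPKM from 2 reads, was itself under its 3-read level of 1132 FPKM. This limit and all intervals given here cover counting error only.

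On the log2(FPKM + 48.2) scale, where no read is set to 5.59, miR-132-3p was 2.06 higher in aged muscle (SE 0.56). The 2 means were 7.34 ± 1.42 and 9.40 ± 0.361 (SD, n = 6 each). The rule used this contrast, and 0.207% of the 482 miRNAs had a fitted rise of this size or more, which is miR-132-3p alone. Falls are not counted in that share. The median fitted difference of the 482 was 0.07. Pooled over libraries, which weights each by its depth, miR-132-3p had 43 reads, or 5.03 reads per 1000000 mapped (RPM, exact Poisson 95% interval 3.64 to 6.77) in young muscle. In aged muscle it had 184 reads, or 13.7 RPM (11.8 to 15.8). The ratio was 2.72 (exact 95% interval 1.94 to 3.88), a size that 3.32% of the 482 miRNAs reached. The 2 deepest libraries alone, a choice made after seeing the data, gave 2.45 (1.65 to 3.71). On the log2 scale these 2 ratios were 1.44 and 1.29, and limma voom on the recovered reads gave 1.68, all under the fitted 2.06. With 1 library left out the fitted difference ran from 1.72, without young replicate 2 or 5, to 2.39. A pseudocount of 1 FPKM gave 4.00.

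Depth moved with age in these libraries. With log2 of depth as a covariate the fitted difference of miR-132-3p was 2.00 (SE 0.59), and without the deepest library of each age it was 2.25 (SE 0.67).

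**Figure D1:**
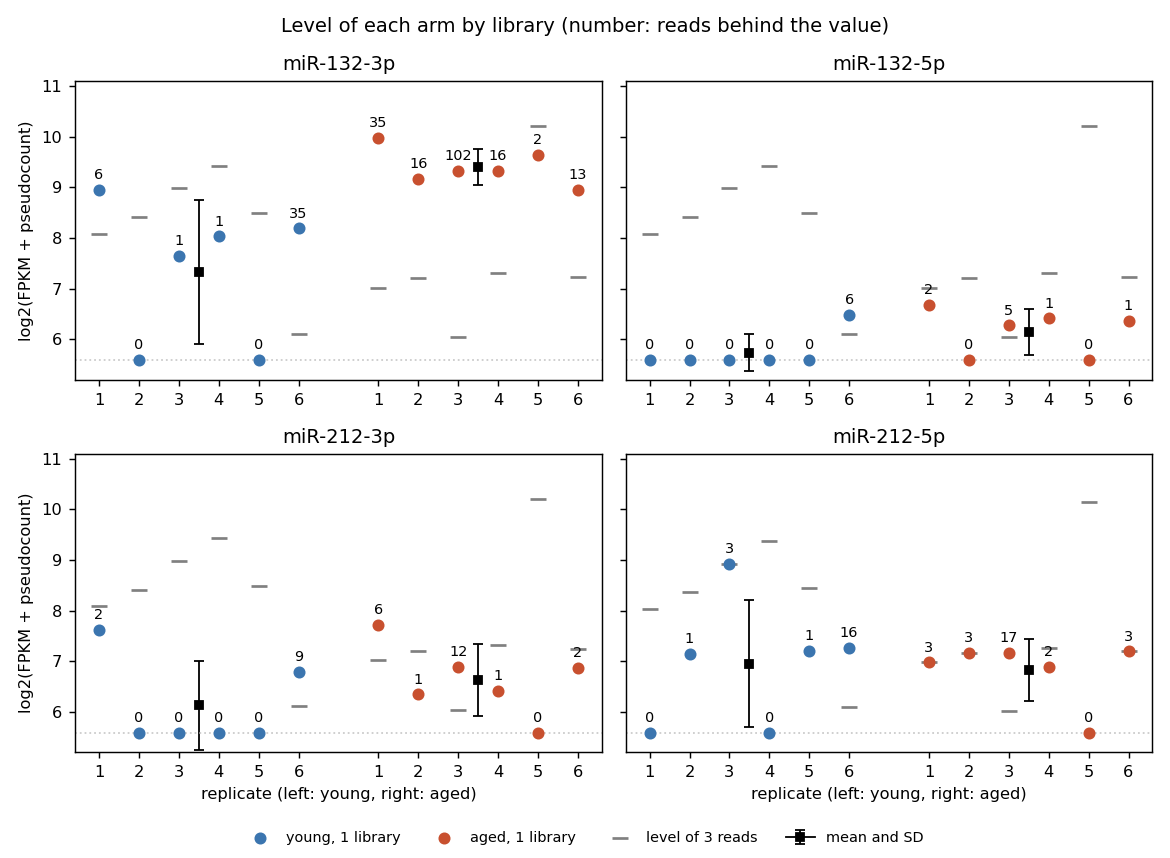
Level of each arm in each library as log2(FPKM + pseudocount of 48.2 FPKM) on the y axis, with young replicates at left and aged at right, the reads written at each point, the black square and bar for mean and SD (n = 6), the grey dash for the level of 3 reads and the dotted line for no read. For miR-132-3p 5 of 6 aged libraries lie above all young ones, while the groups of the other arms overlap over most of their range and most of those points lie at or under the 3-read level.

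Its partner miR-132-5p, usually the passenger strand, was the rarest of the 4. It had a read in 1 of 6 young libraries, young replicate 6 with 6 reads. In aged replicates 1 to 6 it had 2, 0, 5, 1, 0 and 1 reads. Detection in young muscle was thus in the deepest library alone, and the groups overlapped.

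The level of miR-132-5p ranged from 0 to 41.6 FPKM with a median of 0 in young, and from 0 through 31.8 to 54.6 FPKM in aged muscle. Its means were 6.94 ± 17.0 and 25.9 ± 21.8 FPKM (SD, n = 6 each), and the fitted log2 difference was 0.41 (SE 0.31). Pooled reads turned this direction: 6 young and 9 aged reads gave 0.702 RPM (exact Poisson 95% interval 0.258 to 1.53) and 0.668 RPM (0.306 to 1.27). Their ratio of 0.952 had an interval of 0.303 to 3.25. No difference in miR-132-5p was detectable at this depth, and a change of the size seen in its 3p partner lies inside that interval.

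The second hairpin gave fewer 3p reads. miR-212-3p shares the seed of miR-132-3p and so can pair with the same seed sites. Its reads in young replicates 1 to 6 were 2, 0, 0, 0, 0 and 9, and in aged replicates 1 to 6 they were 6, 1, 12, 1, 0 and 2. It was read in 2 young and 5 aged libraries, and 1 aged library lay above the highest young value.

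In young muscle miR-212-3p had a median of 0 and a highest value of 149 FPKM. The aged libraries ran from 0 through 52.8 to 163 FPKM, so the groups overlapped over nearly the whole range. The means of 35.3 ± 61.1 and 62.0 ± 55.9 FPKM (SD, n = 6 each) differed by less than the spread between libraries. The fitted log2 difference was 0.51 (SE 0.45). Pooled, miR-212-3p had 1.29 RPM in young (11 reads, exact Poisson 95% interval 0.642 to 2.30) and 1.63 in aged muscle (22 reads, 1.02 to 2.47). The ratio of 1.27 had an exact 95% interval of 0.590 to 2.90, which holds both no change and the ratio of miR-132-3p.

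The 5p arm of the same hairpin, miR-212-5p, has a seed of its own and so can pair with other sites. In young replicates 1 to 6 it had 0, 1, 3, 0, 1 and 16 reads, and in aged replicates 1 to 6 it had 3, 3, 17, 2, 0 and 3. The highest level of any library was in young replicate 3, from 3 reads, and no aged library exceeded it.

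In FPKM, miR-212-5p ran from 0 through a median of 96.0 to 437 in young muscle and from 0 through 86.4 to 98.4 in aged muscle. Its mean was lower in aged muscle, at 72.8 ± 37.3 against 122 ± 161 FPKM (SD, n = 6 each), and this difference was smaller than the SD of the young libraries. The fitted log2 difference was -0.12 (SE 0.55). The pooled rate was 2.46 RPM in young (21 reads, exact Poisson 95% interval 1.52 to 3.75) and 2.08 in aged muscle (28 reads, 1.38 to 3.00). The ratio was 0.846 (exact 95% interval 0.464 to 1.57). The direction on the log2 scale rested on single libraries, since without young replicate 3 the difference was 0.27 and without aged replicate 5 it was 0.12.

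Of the 4 fitted differences 3 were above 0, as were 55.4% of all 482, and 1 of 4 was past a 1.5-fold rise, as were 10.8% of the 482. These shares used the contrast by which the arms were chosen.

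**Figure D2:**
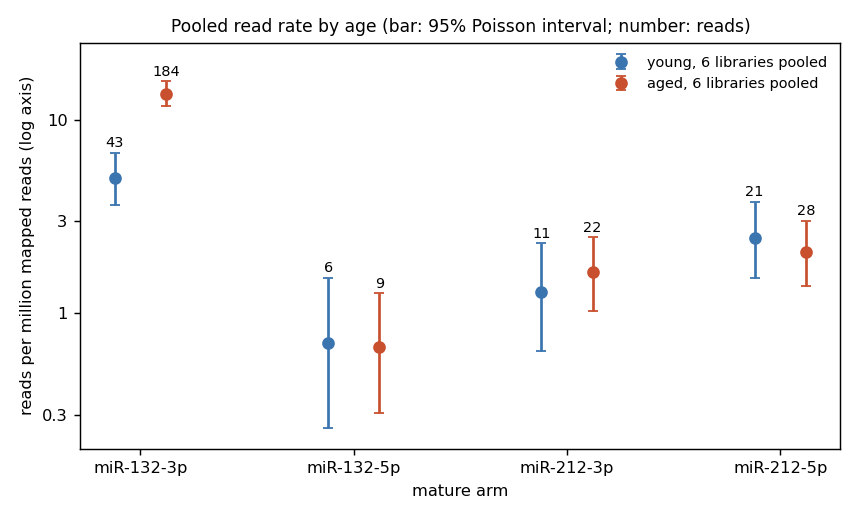
RPM on a log axis for each arm, pooled over 6 young and 6 aged libraries, with the reads at each point and bars for exact Poisson 95% intervals, which cover counting error only. The intervals of miR-132-3p (43 and 184 reads) are apart, and those of the other 3 arms overlap.

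By mean FPKM over all 12 libraries the order was miR-132-3p (411), miR-212-5p (97.6), miR-212-3p (48.6) and miR-132-5p (16.4). Among miRNAs with a read, miR-132-3p had rank 278 of 723 in young and 193 of 785 in aged muscle, and miR-132-5p had rank 555 and 432. Their nearest neighbours in the order did not differ from them beyond the spread. miR-132-3p stood between let-7f-2-3p at 414 ± 158 and miR-15b-5p at 380 ± 119 FPKM (SD, n = 12 libraries of both ages). miR-212-5p stood between miR-324-3p and miR-7035-3p, miR-212-3p between miR-7007-3p and miR-7689-3p, and miR-132-5p between miR-375-3p and miR-1291. Pooled rates gave the same order in young and in aged muscle.

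The share of the 3p arm was higher in miR-132 than in miR-212. In miR-132 the 3p arm had 227 of 242 reads, or 93.8% (Clopper-Pearson 95% interval 90.0 to 96.5%), and it had the higher level in 10 of 10 libraries with a read. In miR-212 the 3p arm had 33 of 82 reads, or 40.2% (29.6 to 51.7%), and the 5p arm had the higher level in 8 of 10 libraries with a read. That interval holds an even balance, and in 6 of those 8 libraries the 5p arm had at most 3 reads. Reads of 1 library are not independent samples, and 66 of the 81 young reads of the cluster came from young replicate 6 and 136 of the 243 aged reads from aged replicate 3, so these intervals say nothing of the spread between mice.

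Split by age, the 3p share of miR-132 reads was 87.8% (43 of 49, 75.2 to 95.4%) in young and 95.3% (184 of 193, 91.3 to 97.8%) in aged muscle. The 3p share of miR-212 reads was 34.4% (11 of 32, 18.6 to 53.2%) and 44% (22 of 50, 30.0 to 58.7%). For both hairpins the intervals of the 2 ages overlapped.

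The log2 ratio of 5p to 3p of miR-132 was -1.59 ± 1.35 in young and -3.25 ± 0.522 in aged muscle (SD, n = 6 each), a difference of -1.65 (SE 0.59). In the young libraries with no read of either arm this ratio is 0 by construction, which pulls the young mean up. miR-132-5p had no read in young replicates 1 to 5 and aged replicates 2 and 5. There the ratio only restates the level of miR-132-3p. For miR-212 the log2 ratio of 5p to 3p was 0.82 ± 1.81 and 0.19 ± 0.532 (SD, n = 6 each), with a difference of -0.63 (SE 0.77) within the spread.

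Among reads with the shared seed, miR-132-3p made up 79.6% (43 of 54, Clopper-Pearson 95% interval 66.5 to 89.4%) in young and 89.3% (184 of 206, 84.3 to 93.2%) in aged muscle. Its log2 ratio to miR-212-3p was 1.20 ± 1.02 in young and 2.76 ± 0.712 in aged muscle (SD, n = 6 each), a difference of 1.56 (SE 0.51). This ratio too is 0 by construction in young replicates 2 and 5, which lowers the young mean, and pooled reads gave a difference of 1.10. miR-212-3p also had no read in young replicates 3 and 4 and aged replicate 5, where the ratio only restates the level of miR-132-3p. Of all reads of the cluster miR-132-3p held 53.1% (43 of 81, 41.7 to 64.3%) in young and 75.7% (184 of 243, 69.8 to 81.0%) in aged muscle. These shares are a description of reads that came mostly from 1 library per age.

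Summed over the 4 arms, young replicates 1 to 6 had 13.1, 2.15, 13.4, 4.71, 2.29 and 10.1 RPM. Aged replicates 1 to 6 had 27.6, 14.6, 17.5, 16.3, 16.6 and 14.3. The lowest aged value lay just above the highest young one, and the latter rested on 4 reads. Groups of single miRNAs failed to overlap in 2.7% of the 482. The sum follows miR-132-3p in most libraries, so it is no separate evidence for the other arms.

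**Figure D3:**
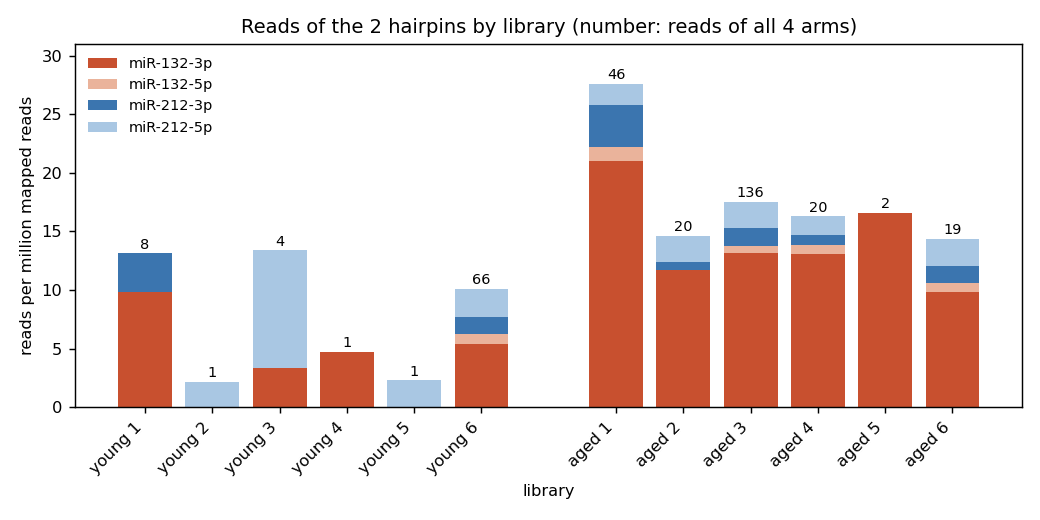
RPM of each library, stacked by arm from 0, with the reads of all 4 arms written above each bar. Aged libraries run from 14.3 to 27.6 and are mostly miR-132-3p, while the young run from 2.15 to 13.4 and 4 of them rest on 4 reads or fewer.

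Across the 12 libraries the level of miR-132-3p went with that of miR-212-3p (Pearson r = 0.60, Spearman rho = 0.60) more than with miR-132-5p (r = 0.48, rho = 0.47) or miR-212-5p (r = -0.28, rho = -0.45). With the age means removed, r was 0.56 for miR-212-3p, 0.22 for miR-132-5p and -0.35 for miR-212-5p. The 12 libraries share the age difference and the depth of each library, and most values of the 3 rarer arms are at or near the level of no read.

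Of 288 other miRNAs above 0 in at least 10 libraries, the most like miR-132-3p was miR-152-3p (r = 0.80, rho = 0.78, n = 12 libraries), followed by miR-221-3p (r = 0.79, rho = 0.83). Next were miR-1839-3p (r = 0.74, rho = 0.43), miR-677-5p (r = 0.71, rho = 0.72) and miR-324-5p (r = 0.70, rho = 0.38). The median r of the 288 was -0.07. With the age means removed, r was 0.57 for miR-152-3p, 0.58 for miR-221-3p, 0.67 for miR-1839-3p, 0.34 for miR-677-5p and 0.63 for miR-324-5p. These 5 were ranked with age included. With the age means removed, the highest r was that of miR-1981-3p, 0.82 against 0.70 before, and miR-335-5p went from 0.42 to 0.62. Both were named after their values were seen.

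Values of the nearest miRNAs along the chromosome were set beside the cluster. The nearest hairpin with reads was Mir22, 290 kb after the cluster, a highly read miRNA of heart and skeletal muscle. miR-22-3p differed by 0.00 on the log2 scale (SE 0.17, limma adjusted p = 0.992) and miR-22-5p by 0.07 (SE 0.22, adjusted p = 0.944). On the other side the nearest tested miRNAs came from Mir195a, 4938 kb away, with 0.20 for miR-195a-5p (SE 0.15, adjusted p = 0.640) and 0.27 for miR-195a-3p (SE 0.57, adjusted p = 0.908).

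miR-132 is one of the miRNAs raised by endotoxin through NF-kB and CREB in myeloid cells, and 8 others of that response were listed. This list and those below were drawn up with earlier results of these data known, so their counts are no separate evidence. The study itself reported miR-146a-5p and miR-155-5p as raised with age. Of the 7 tested members of this list, 1 rose and 0 fell with a limma adjusted p under 0.05. Over all 482 miRNAs the shares were 0.622% and 2.28%. The 0.622% is 3 miRNAs, miR-146a-5p among them, so it holds the call of this list. The median log2 difference of the list was 0.34, beside 0.07 over all 482, and 6 of 7 were above 0. That median was the value of miR-146b-5p, whose pooled rate ratio was 0.826. Pooled ratios of the other tested members ran from 1.13 (miR-21a-5p) to 3.15 (miR-9-5p). The one that rose was miR-146a-5p, which dampens Toll-like receptor signals through IRAK1 and TRAF6. It went from 3560 ± 2751 to 7700 ± 3615 FPKM (SD, n = 6 each), a log2 difference of 1.27 (SE 0.35, limma adjusted p = 0.0497). Its pooled rate ratio, on a linear scale, was 1.28, a smaller difference than the fitted one. It was not called by limma voom, and it was called in 5 of 25 alternatives, and in 3 of the 12 that left out 1 library, with adjusted p-values from 0.00353 to 0.317.

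The other tested members of this list did not pass. miR-155-5p, a driver of macrophage activation, differed by 0.71 (SE 0.32, limma adjusted p = 0.344) and miR-223-3p, a myeloid miRNA, by 0.67 (SE 0.37, limma adjusted p = 0.458). miR-146b-5p was at 0.34, miR-21a-5p at 0.08, miR-9-5p at 0.07 and miR-125a-5p at -0.06. miR-147-3p, with 2 reads in all, could not be tested.

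**Figure D4:**
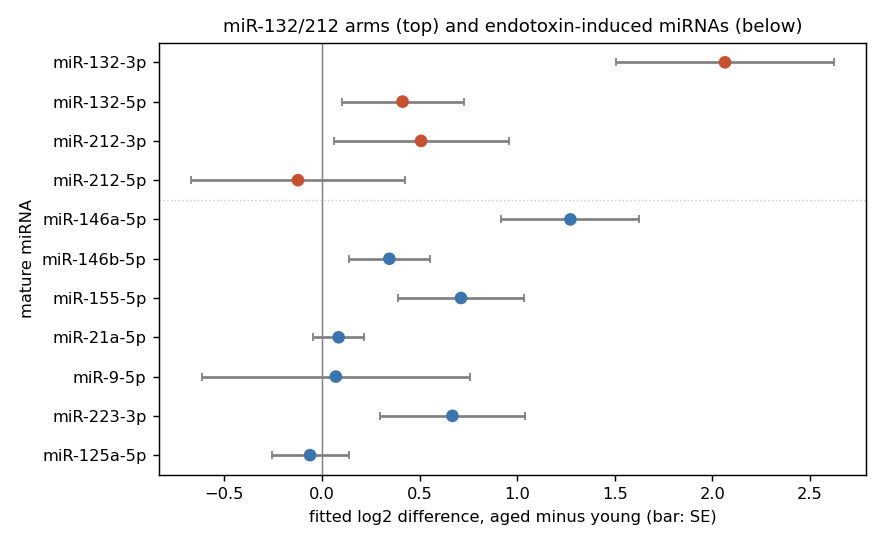
Fitted log2 difference, aged minus young, on the x axis for the 4 arms (top) and the 7 tested endotoxin-induced miRNAs, with bars for SE (n = 6 libraries per age). miR-132-3p at 2.06 and miR-146a-5p at 1.27 lie farthest to the right, and the other 9 lie between -0.12 and 0.71.

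Of 14 other miRNAs known from neuronal activity or synapses, 12 could be tested, and 0 rose or fell with a limma adjusted p under 0.05, against 2.9% of all 482. The count was 0 also at an unadjusted p under 0.05 and by limma voom on the recovered reads. Their median log2 difference was 0.07, equal to that of all 482, and 8 of 12 were above 0, beside 55.4% of the 482. Pooled rate ratios of the 12 ran from 0.508 (miR-219a-5p) to 3.81 (miR-124-3p), with 3.15 for miR-9-5p. miR-134-5p, which acts on dendritic spines, differed by 0.27 (SE 0.56, limma adjusted p = 0.908) and miR-138-5p, a synaptic miRNA, by 0.08 (SE 0.50, limma adjusted p = 0.976). miR-379-5p, from the cluster that holds miR-134, was at -0.62 (SE 0.56, limma adjusted p = 0.693).

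Markers of the cell types that muscle holds were set beside the arms. Of 6 muscle fibre miRNAs, 1 rose and 0 fell, miR-206-3p by 1.54 on the log2 scale (SE 0.39, limma adjusted p = 0.0296), where 0.622% of all 482 rose and 2.28% fell. The share that rose includes miR-206-3p itself. The call of miR-206-3p was kept in 12 of 25 alternatives and in 4 of the 12 that left out 1 library. The median of the 6 was 0.48. miR-208b-3p was at 1.29 (SE 0.89), from 20 young and 147 aged reads, with a pooled rate ratio of 4.67. miR-499-5p was at 0.79 (SE 0.60), miR-1a-3p at 0.17, miR-133b-3p at -0.11 and miR-133a-3p at -0.17. The summed level of the 6 ran from 4594296 to 7378806 FPKM in young and from 4497092 to 5333858 FPKM in aged muscle. That sum is mostly miR-133a-3p and says little of the others. All 6 were read in both ages.

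None of the other marker lists had a member that passed the test: 0 of 2 endothelial, 0 of 3 smooth muscle and pericyte, 0 of 3 red cell, 0 of 4 white blood cell, 0 of 2 neuron and 0 of 2 myelinating glia miRNAs by limma, and 0 in each by limma voom, where limma called 2.9% of all 482. At an unadjusted p under 0.05 there was 1 smooth muscle and 1 red cell miRNA, and 0 in the other lists. Their medians were 0.01, 0.17, -0.34, 0.36, 0.14 and 0.04. The summed white blood cell miRNAs ran from 8449 to 19468 FPKM in young and from 11136 to 24904 FPKM in aged muscle, and the endothelial ones from 307743 to 455685 and from 336491 to 382329 FPKM. The summed neuron miRNAs ran from 0 to 888 FPKM in young and from 0 to 787 FPKM in aged muscle. Of those, miR-9-3p and miR-137-3p had 0 reads in young and 3 reads each in aged muscle. miR-124-3p had 8 young and 48 aged reads, a pooled rate ratio of 3.81. miR-9-5p had 27 and 134, a ratio of 3.15. Their mean FPKM went the other way, from 97.7 to 81.3 for miR-124-3p and from 329 to 286 for miR-9-5p. The part of these cell types in the level of miR-132-3p was not tested.

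The differences of the 4 arms were computed in 26 other ways, which are not separate evidence. Without the filter, with a replicate block, without the eBayes trend or with genomic copies kept apart, the fitted difference cannot change. Those with 1 library left out share all the other libraries. miR-132-3p was higher in aged muscle in 26 of 26, from 0.80 to 4.00 on the log2 scale, and from 1.72 to 2.39 when 1 library was left out. miR-212-3p was above 0 in 26 of 26, from 0.07 to 2.79. miR-132-5p was above 0 in 23 of 26, and miR-212-5p in 3 of 26. The size of the differences thus varied widely between the alternatives, and the direction of both 5p arms changed in some.

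**Figure D5:**
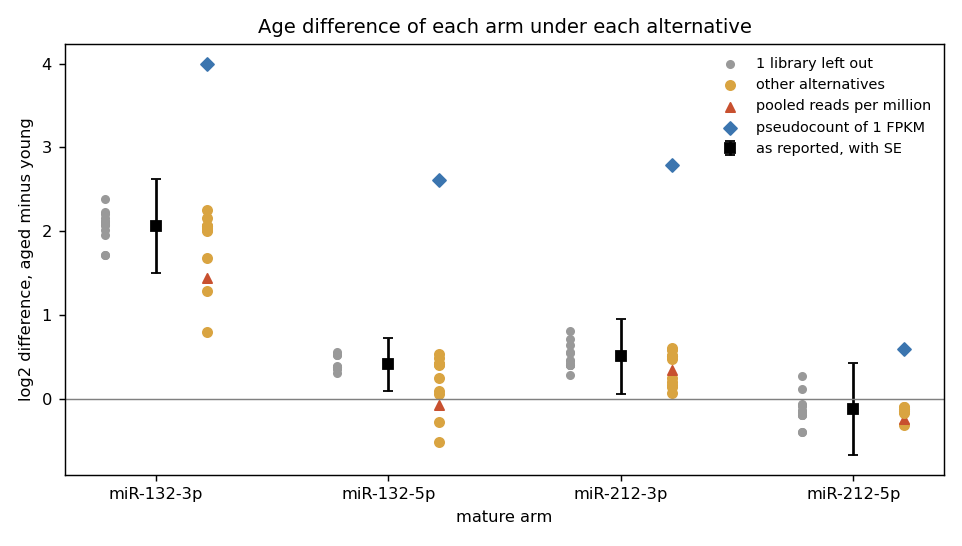
Log2 difference, aged minus young, of each arm as reported (black square, bar for SE) with each library left out in turn (grey) and under the other alternatives (colours). All points of miR-132-3p lie between 0.80 and 4.00, while those of miR-132-5p and miR-212-5p lie on both sides of 0.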

How the data were processed

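By the methods of the study, the authors removed adaptors, aligned the reads to mm10 using BWA and derived FPKM for mature miRNAs of miRBase 20. The submitters' processing notes name TopHat2. The deposited values are log2 of FPKM to 2 decimals, with 0 for no read. Strand use and the handling of reads with several sites are not given in the sources used here.

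The log was undone and genomic copies were summed. FPKM of 1 read is set by length and mapped reads, so reads were recovered per library, and 99.3% of the 3212 values below 25 reads were whole to within 0.15 reads. Whether the authors counted the length of a miRNA to the base could not be settled, so depths are estimates. Levels were fitted as log2(FPKM + 48.2), 48.2 being the lowest nonzero value of a library, taken as the median of the 12, for 482 miRNAs above 0 in at least 5 of 12 libraries. The fit was limma 3.58.1 in R 4.3.3 (lmFit, eBayes with trend, aged against young), two-sided, with Benjamini-Hochberg adjustment at 0.05. It was tested on simulated data with the same normal noise for every miRNA and library. That test does not cover values from few reads. Intervals used SciPy 1.17.1. Loci came from GENCODE M21 and sequences from RefSeq, both GRCm38, with all 4 arms matched by name.

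The members, lists and tests were chosen with earlier results of these data known. Named miRNAs were the 4 arms, list and marker members, the 5 most like miR-132-3p, neighbours in level or locus, and those with a member's seed.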

Additional observations from a re-analysis of the deposited data

Results flagged for a closer look

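In young muscle miR-132-5p stood apart in young replicate 6, at 6.49 on the log2(FPKM + 48.2) scale, while the other 5 libraries were at 5.59, the value of no read. With 5 equal values any read would stand apart, and this library, the deepest of the young, had 6 reads. In aged muscle miR-212-5p stood apart in aged replicate 5, at 5.59 with no read, against 6.89 to 7.20 in the other 5. This was the shallowest library, where 3 reads would give 1083 FPKM, above every value of miR-212-5p. Of 14 groups of 6 libraries these 2 stood apart. The rule's chance count of 0.7 assumes separate groups with no ties. Here many values were tied at no read and some groups were ratios of the same arms, so the 2 cannot be set against it. The part of depth in these 2 was not tested.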

How the results depend on the processing

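A pseudocount of 1 FPKM gave log2 differences of 4.00 for miR-132-3p, 2.62 for miR-132-5p, 2.79 for miR-212-3p and 0.59 for miR-212-5p, and -2.20 for the ratio of 5p to 3p of miR-212. One of 482 FPKM gave 0.80 for miR-132-3p. miR-132-5p changed sign with voom (-0.27), pooled RPM (-0.071) and the deepest libraries alone (-0.51, chosen after seeing the data), and miR-212-5p without young replicate 3 (0.27) or aged replicate 5 (0.12). With 1 library left out the ranges were 1.72 to 2.39 for miR-132-3p, 0.31 to 0.56 for miR-132-5p, 0.29 to 0.81 for miR-212-3p, -0.40 to 0.27 for miR-212-5p, -2.01 to -1.33 and -1.20 to -0.13 for the 5p to 3p ratios of miR-132 and miR-212, and 1.30 to 1.80 for miR-132-3p to miR-212-3p. The calls over all miRNAs, 14 as reported, were 6 with a pseudocount of 1, 7 with no filter, 8 with a filter on the mean, 8 with depth as a covariate and 6 to 15 with 1 library left out. The filter on the mean, at 482 FPKM, left out all 4 arms. Apart from these, no difference or ratio of the arms moved by more than its spread, and the cause of the changes was not tested.

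Replicate numbers did not pair the libraries, as deviations of same-numbered libraries correlated between -0.09 and 0.09. With the replicate block the difference of miR-132-3p was 2.06 (SE 0.55) and the calls were 14. Depth limits all 4 arms: miR-132-3p had under 3 reads in 4 of 6 young libraries and 1 aged one, and the other 3 arms had at most 3 reads in most libraries.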
